A study of Rattus norvegicus with 3 samples.

Results

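Enrichment removal (ER) was set against standard housing (SH) in the basolateral amygdala (BLA) of the rat, across the protein-coding genes that were well covered by reads. The compared genes were those listed as protein-coding whose mean over the ER, EE and SH libraries was at least 50 scaled counts, a scaled count being a gene's reads divided by a size factor of its library. There were 13386 such genes, of 16797 protein-coding and 19113 listed genes. Just inside the limit lay Slc10a1 with a mean of 50.1 and just outside it Pzp with 49.98.

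All animals were adult male Sprague-Dawley rats. ER rats had spent their active hours in a communal cage furnished with objects to climb and play on, and were then taken out of it for good and, per the study's methods, housed singly until tissue collection weeks later. SH rats never had enrichment and were kept in pairs in ordinary cages. EE rats stayed in environmental enrichment, and their library is given beside the others only as a further level. Each condition is a single pool of RNA, made from the punches of 10 rats and sequenced as 1 library. ER and SH therefore differ in company as well as in enrichment history, and the effect of each cannot be told apart. A punch of the BLA can take in bordering tissue, and in such bulk RNA fewer cells of a type and less RNA per cell cannot be told apart.

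The BLA is a group of amygdala nuclei built largely of glutamatergic projection neurons with a minority of GABAergic interneurons, and it is known for assigning emotional value to events and for its part in fear and stress responses. Removal from enrichment is used in rats as a model of loss, in which an animal is deprived of surroundings it had come to know. Transcripts of the BLA come from neurons, from oligodendrocytes, astrocytes and microglia, and from vessels, so each function below is described by the genes that carry it.

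The ER library held 29558555 reads in listed genes and the SH library 30334384, with 97.6% of the reads in the compared genes in each. Transcripts of glutamatergic and GABAergic neurons were abundant. Slc17a7, the vesicular glutamate transporter of projection neurons, stood at 58098 scaled counts in ER and 57756 in SH, and Gad1, a GABA-synthesising enzyme, at 8623 in ER and 8456 in SH. Each condition has 1 library, so no difference has a replicate check and no test between conditions was possible. Ratios are ER over SH with an exact 95% binomial (Clopper-Pearson) interval, which covers counting error only.

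The ER and SH libraries were close to each other. Of the 13386 genes, 76.8% differed by less than 1.1-fold and 99.3% by less than 1.5-fold, and the ratio was above 1 for 50.6%. A gene was taken as past the size rule where ER and SH differed 1.5-fold or more and the counting interval excluded 1. The rule was passed by 44 genes that were higher in ER (0.329% of the genes) and by 52 that were lower (0.388%). A counting interval that lay above 1, at any size of ratio, was found for 8.82% of the genes, and one that lay below 1 for 9.19%. These last 2 shares are over all compared genes. Because such shares rise with the level of a gene, they are given again by level before the lists.

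**Figure D1:**
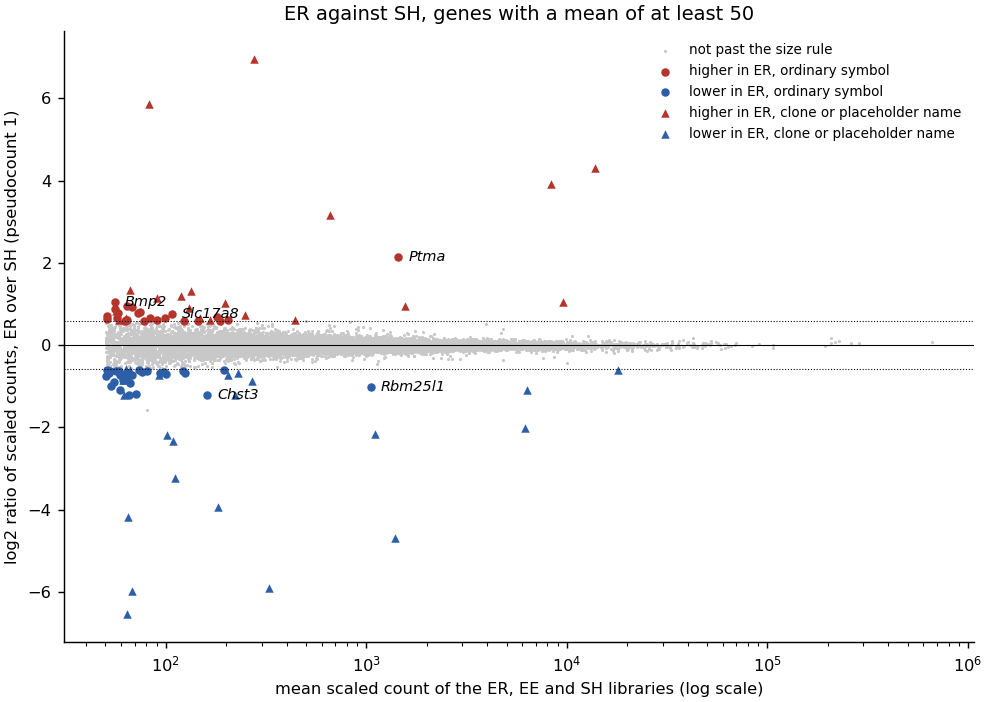
Log2 ratio of scaled counts, ER over SH (y axis, pseudocount of 1), against the mean scaled count of the 3 libraries (x axis, log scale) for 13386 genes. Dotted lines mark 1.5-fold. Genes past the size rule are coloured by direction, circles for ordinary symbols and triangles for clone, locus or placeholder names, and most points far from 0 are triangles, Ptma being the exception.

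How far a ratio could stray depended on the level of the gene. Among genes with an ordinary symbol, 44.1% of those with a mean between 50 and 200 lay within 1.1-fold, against 98.4% of those at 5000 or more. Of the 52 ordinary genes past the size rule, 22 of the 24 higher in ER and 27 of the 28 lower in ER had a mean under 200. Among ordinary symbols, the genes most different in ratio were thus mostly genes of low level, where a ratio rests on few reads. Of genes past the rule with a clone, locus or placeholder name, 12 of 20 higher in ER and 14 of 24 lower had a mean under 200. Means in these 2 groups reached 13852 and 17954.

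Secreted and developmental signals were among the genes higher in ER. Bmp2, a ligand of the bone morphogenetic protein family, had 74.9 scaled counts in ER, 35.9 in SH and 55.8 in EE, a ratio of 2.09 (1.38 to 3.21). Gas1, a co-receptor for hedgehog ligands, had 74.9 in ER and 42.8 in SH (1.75, 1.18 to 2.61). Their families lay on both sides of 1. Of 12 BMP and TGF-beta ligands, 5 had a ratio above 1, with 1 interval above 1 and 1 below, and of 14 hedgehog pathway genes 7 did, with 2 above and 1 below.

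Nts, the precursor of the peptide neurotensin, had 88.2 scaled counts in ER, 55.8 in SH and 105 in EE (1.58, 1.12 to 2.26). Slc17a8, the third vesicular glutamate transporter (VGLUT3), found in some interneurons and in serotonergic and cholinergic neurons, had 132 in ER, 77.7 in SH and 112 in EE (1.70, 1.28 to 2.29). The ER library thus held more of a peptide transcript and of a minor glutamate transporter, while the main transporter Slc17a7 had a ratio of 1.01 (0.994 to 1.02). Nts is also among the markers of bordering striatum and central amygdala read below, and the part of that tissue in its ratio was not tested.

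Tet1, an enzyme that oxidises methylated cytosine, had 96.4 in ER, 55.8 in SH and 65.1 in EE (1.73, 1.23 to 2.45). It was the only member of 18 DNA methylation genes past the rule, and the list had a median log2 ratio of 0.03. Gcnt2, which branches glycan chains, had 203 in ER, 125 in SH and 209 in EE (1.62, 1.29 to 2.04). Other genes higher in ER by this rule were Klhl1, an actin-binding kelch protein of neurons (1.94), Skida1 (1.96), the calcium-binding protein gene S100a3 (1.88), Susd5 (1.75), Lekr1 (1.66), Asb14 (1.60), the ubiquitin ligase gene Rnf182 (1.59) and the interferon-induced gene Isg15 (1.56).

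Ptma, which encodes prothymosin alpha, a small acidic nuclear protein, had 2183 scaled counts in ER, 492 in SH and 1634 in EE (4.44, 4.02 to 4.90). Processed copies of this gene are common in mammals, which makes the assignment of its reads uncertain, and it was the only 1 of 18 genes with a ratio of at least 4-fold that had an ordinary symbol.

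Genes lower in ER included a peptide, a matrix enzyme and a neurotrophin. Cartpt, the precursor of the CART peptides, which act in feeding, reward and stress circuits, had 48.2 scaled counts in ER, 111 in SH and 54.8 in EE (0.436, 0.303 to 0.619). Cartpt is also among the markers of bordering hypothalamus and medial amygdala read below, and the part of that tissue in its ratio was not tested. The promoter of Cartpt is shown because it carries a full cAMP response element, the site bound by CREB, in capitals below. The stretch lies on the minus strand of GRCr8 at chr2:32991318-32991437, from RefSeq, within the 250 bases before the start of the gene.
Cartpt: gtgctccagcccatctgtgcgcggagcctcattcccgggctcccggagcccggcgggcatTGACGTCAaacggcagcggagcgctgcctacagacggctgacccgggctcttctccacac

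The 8 letters TGACGTCA, which read the same on both strands, were sought in windows from 250 bases before to 50 bases after the start. They occur in 1.91% of 27457 promoters in the table, 1 promoter taken per symbol. The share was 3.19% for the 9852 compared genes that were matched there by symbol. These letters were also present for 4 of 17 matched neuropeptide genes, Cartpt among them, and for 4 of 23 matched immediate early genes. A match describes the letters of the window and says nothing of what binds there.

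Chst3, a chondroitin 6-O-sulphotransferase that sets the sulphation of matrix proteoglycans, had 107 scaled counts in ER, 248 in SH and 129 in EE (0.430, 0.339 to 0.543). Chst12, a chondroitin 4-O-sulphotransferase, had 562 in ER, 704 in SH and 622 in EE (0.798, 0.713 to 0.894). Ratios of this group of enzymes lay on both sides of 1. Of 23 chondroitin sulphate enzymes, 12 had a ratio above 1, with 2 intervals above 1 and 4 below, and Xylt1, which starts the chain on its core protein, had 831 in ER and 712 in SH (1.17, 1.05 to 1.29).

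Ntf3, the neurotrophin NT-3, had 65.7 in ER, 104 in SH and 58.9 in EE (0.634, 0.457 to 0.874). Dlx2, a homeobox gene of GABAergic neurons, had 79.0 in ER, 129 in SH and 91.0 in EE (0.610, 0.454 to 0.815). Chrm5, a muscarinic acetylcholine receptor, had 44.1 in ER and 71.7 in SH (0.615, 0.412 to 0.910). Low levels were common to all 3 genes, with wide intervals to match.

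Wisp1, a matricellular protein of the Wnt pathway, had 40.0 scaled counts in ER and 85.6 in SH (0.467, 0.311 to 0.690). The mitotic kinase gene Plk1 had 41.0 in ER and 76.7 in SH (0.535, 0.356 to 0.794), and Birc5, which acts in cell division and blocks apoptosis, had 47.2 in ER and 85.6 in SH (0.551, 0.377 to 0.797). Of 34 mitotic genes in the table, 15 reached the level minimum. Of these 15, 10 had a ratio above 1, and only the intervals of Plk1 and Birc5 excluded 1. Of the 19 under the minimum, 1 interval excluded 1, that of Mcm5, which was higher in ER (2.77, 1.43 to 5.71).

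Dnai1, an intermediate chain of the dynein of motile cilia, had 40.0 in ER, 94.6 in SH and 62.0 in EE (0.423, 0.284 to 0.620). Of 24 cilia genes, 11 had a ratio above 1 and 3 intervals lay below 1, the others being Dnah9 (0.930) and Drc1 (0.895). Markers of choroid plexus and ependyma, which lie along the ventricles, were read beside it. Of 12 measured markers, 3 reached the level minimum, namely Enpp2 (1.12), Igfbp2 (1.45) and Kcne2 (1.14). Enpp2 had 2015 scaled counts in ER and 1803 in SH, and the tissue behind the reads of these 3 genes was not tested. Ttr, the defining choroid transcript, had no reads in ER against 79.7 scaled counts in SH and 4.14 in EE, at least 25.9-fold lower in ER with a floor of 3 reads. Slc4a5, also under the minimum, had 6.15 in ER and 21.9 in SH (0.281, 0.0932 to 0.714). The others under the minimum had intervals that included 1, with ratios above 1 for Calml4, Kl, Prlr and Sostdc1. The 9 markers under the minimum summed to 88.2 in ER and 179 in SH, and without Ttr to 88.2 in ER and 99.6 in SH. The part of choroid plexus tissue in the values of Dnai1 was not tested.

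Rbm25l1, a copy of the splicing gene Rbm25, had 793 in ER and 1616 in SH (0.491, 0.450 to 0.535), with uncertain assignment of reads. The remaining genes of this rank had the following ratios: Atp1a4, a sodium pump subunit, 0.495, Gml 0.521, Snx20 0.585, the bile acid transporter gene Slc10a1 0.586, Akain1 0.598 and Pnpla4 0.601.

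**Figure D2:**
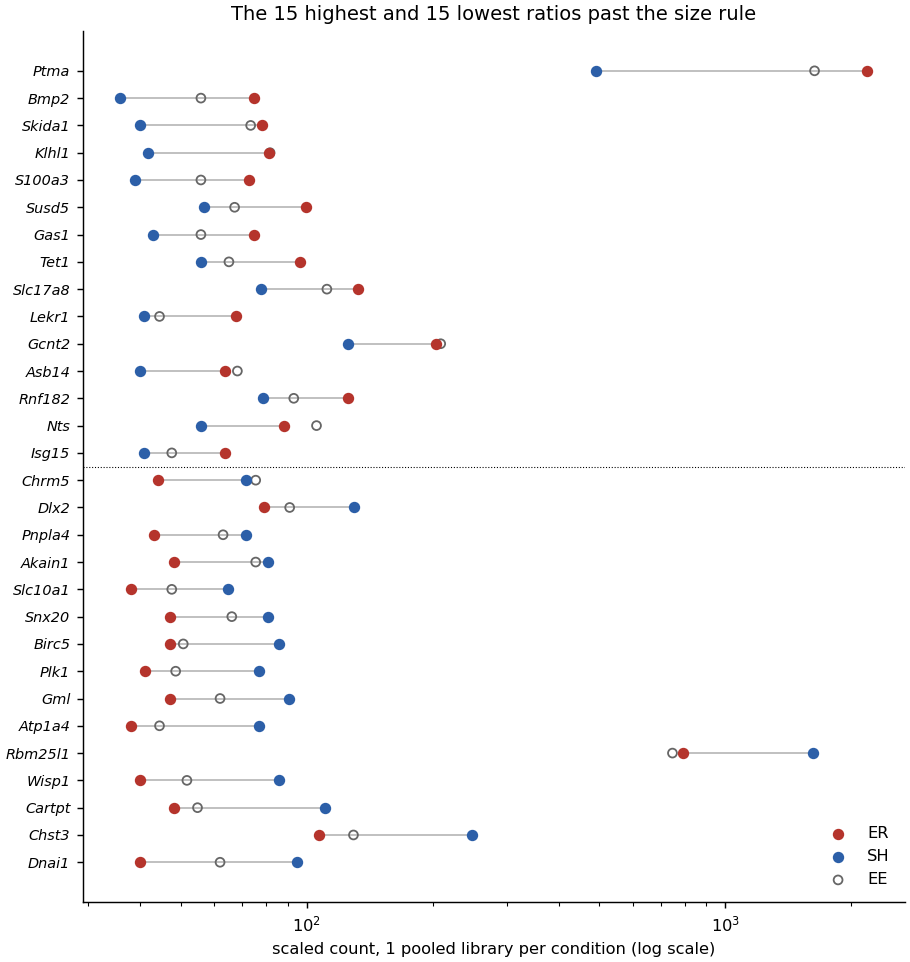
Scaled counts (x axis, log scale) of the 15 genes with the highest and the 15 with the lowest ratio past the size rule among ordinary symbols, 1 pooled library per condition. Red is ER, blue is SH and open circles are EE. Ptma and Rbm25l1 are the only genes of the 30 with a level near 1000 or above.

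Abundant genes gave narrower intervals. There were 5466 ordinarily named genes at or above 1000 scaled counts, and 93.2% of those between 1000 and 5000 lay within 1.1-fold. From the extremes of this group 3 genes were named after their values were seen. Mgst3, a microsomal glutathione transferase, had 4488 scaled counts in ER, 3152 in SH and 4184 in EE (1.42, 1.36 to 1.49). Lhx2, a LIM homeobox gene of forebrain development, had 976 in ER, 1351 in SH and 1078 in EE (0.722, 0.664 to 0.785). Clasp1, which stabilises microtubule ends, had 4447 in ER, 5701 in SH and 4315 in EE (0.780, 0.750 to 0.812). These 3 ratios were far outside their counting error, and their spread between rats is not known from a pool.

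**Figure D3:**
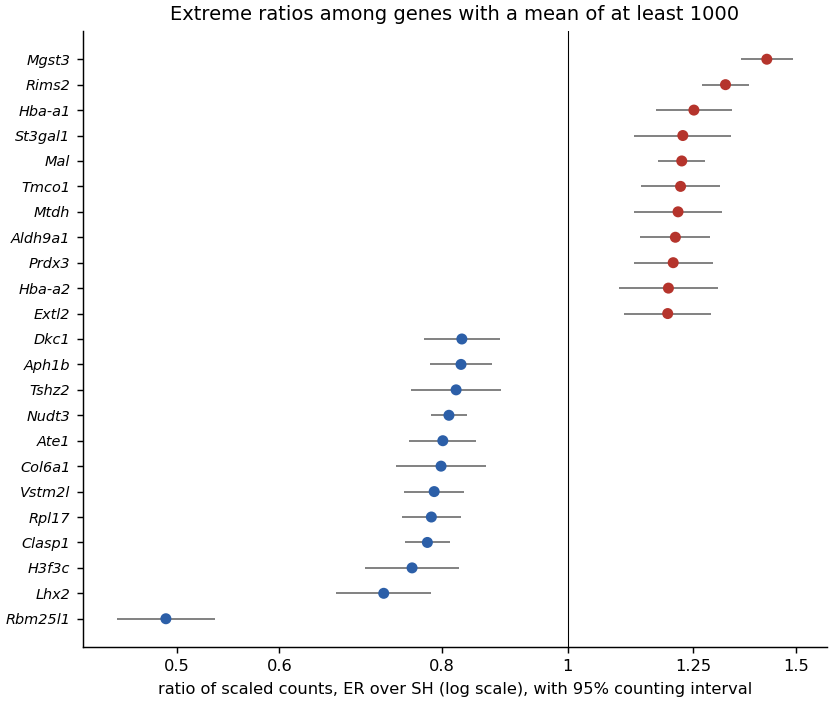
Ratio of scaled counts, ER over SH (x axis, log scale), with 95% counting interval (bars) for the 12 lowest and the 11 next-highest ratios among 5466 genes with a mean of at least 1000. Ptma is left out for scale, Rbm25l1 lies at 0.491, and the others lie between 0.722 (Lhx2) and 1.42 (Mgst3).

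Genes were then read by function, in 93 lists that held 2515 different compared genes. The median log2 ratio of a list ran between −0.16 and 0.19, and 87 of 93 medians lay within 0.1 of 0, against 0.00 over all compared genes. Only 16 lists had any member past the size rule. Groups are therefore described by how many members lay on each side and by how many counting intervals excluded 1, and small groups such as the 3 genes of the CRH system give medians of little weight. Shares of excluding intervals grow with level. For ordinary genes they were 4.47% above and 3.72% below 1 at a mean between 50 and 200, and 6.56% and 5.90% between 200 and 1000. They were 9.56% and 11.7% between 1000 and 5000, and 22.4% above and 22.7% below 1 at 5000 or more. The counts of a list are to be read beside the shares at its level. Vesicle release, astrocyte and postsynaptic scaffold lists, among others, had a median level of 5000 or more.

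**Figure D4:**
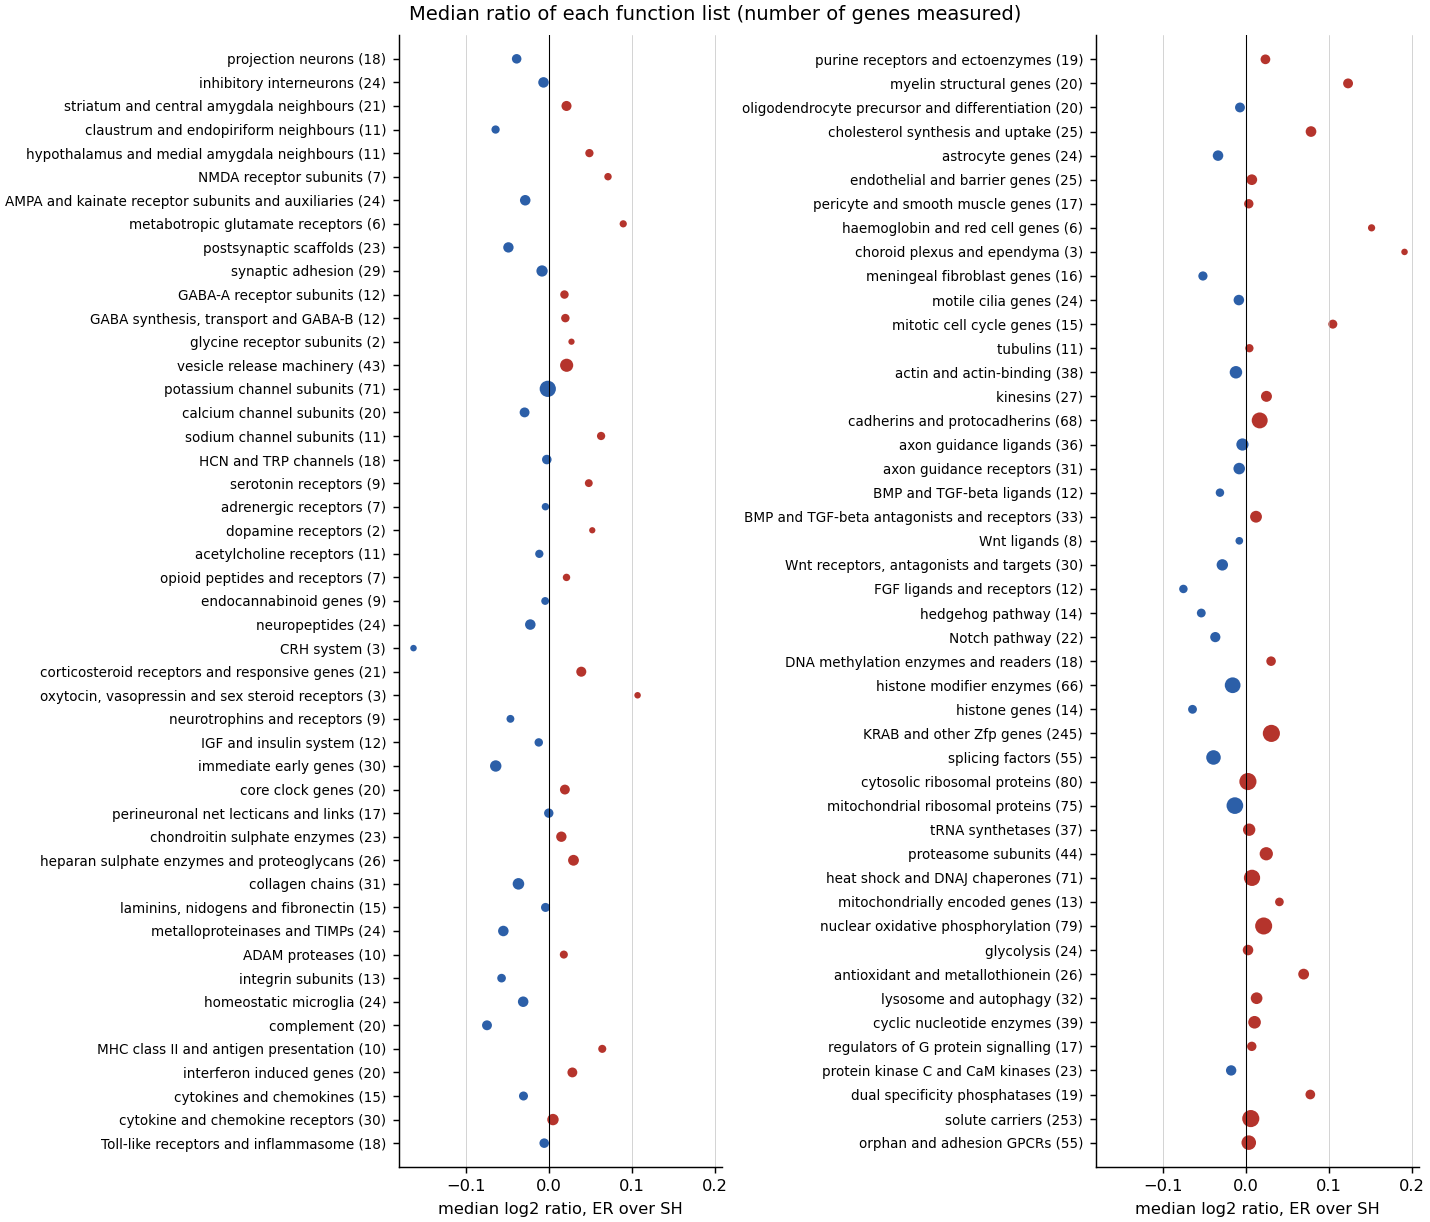
Median log2 ratio, ER over SH (x axis), of each of 93 function lists, with the number of compared genes in brackets and dot area growing with that number up to 80 genes. Medians lie between −0.16 (CRH system, 3 genes) and 0.19 (choroid plexus and ependyma, 3 genes). The choroid median leaves out Ttr, which is under the level minimum and lower in ER, and is no measure of that tissue. Myelin structural genes have 0.12.

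Structural genes of myelin were mostly higher in ER. Of 20 such genes, 19 had a ratio above 1, and 13 intervals lay above 1 and none below, with a median log2 ratio of 0.12. Mbp, myelin basic protein, had 55549 scaled counts in ER, 52614 in SH and 57953 in EE (1.06, 1.04 to 1.07). Mal, a proteolipid of compact myelin, had 5058 in ER, 4131 in SH and 4911 in EE (1.22, 1.17 to 1.28). Summed over the list, myelin transcripts were 1.09 times as abundant in ER as in SH. Of 20 genes of oligodendrocyte precursors and differentiation, 9 had a ratio above 1, and the only excluding interval was that of Lingo1, an inhibitor of myelination, with 10227 in ER and 11051 in SH (0.925, 0.901 to 0.951).

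Genes of cholesterol synthesis and uptake, a pathway that myelin formation draws on, had a ratio above 1 for 23 of 25 members, with 7 intervals above 1, none below and a median log2 ratio of 0.08. Insig1, which holds the sterol sensor in the endoplasmic reticulum, had 2241 scaled counts in ER, 1923 in SH and 2159 in EE (1.17, 1.096 to 1.24). Msmo1, a sterol demethylase, had 3303 in ER and 3077 in SH (1.07, 1.02 to 1.13). The lowest member was Cyp51, with 4247 in ER and 4386 in SH (0.968, 0.928 to 1.01).

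The promoters of Insig1, Msmo1 and Lss, which encodes lanosterol synthase, are shown because these members of the sterol pathway share the CCAAT box, the letters CCAAT on either strand, set in capitals. In GRCr8, from RefSeq, the stretches lie at chr4:8057900-8058019 on the minus strand, chr16:29746985-29747104 on the plus strand and chr20:12118253-12118372 on the minus strand.
Insig1: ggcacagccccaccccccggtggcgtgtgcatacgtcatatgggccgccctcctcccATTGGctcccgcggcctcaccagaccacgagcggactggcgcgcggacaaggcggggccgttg
Msmo1: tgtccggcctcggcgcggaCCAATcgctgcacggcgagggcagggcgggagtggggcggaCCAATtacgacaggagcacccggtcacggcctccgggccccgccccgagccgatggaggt
Lss: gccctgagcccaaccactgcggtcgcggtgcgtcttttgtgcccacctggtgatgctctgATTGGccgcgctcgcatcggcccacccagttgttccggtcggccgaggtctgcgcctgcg
Of the 18 members matched to the table by symbol, 15 held CCAAT or its complement ATTGG within the window that runs 250 bases before to 50 bases after the start. The same letters occur in 37.7% of all 27457 promoters and in 37.3% of the 9852 matched compared genes, and in 7 of 16 matched myelin genes.

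Astrocyte genes leaned the other way by small amounts. Of 24, 5 had a ratio above 1, with 1 interval above 1 and 12 below and a median log2 ratio of −0.03. Apoe, the main lipid carrier of the brain, had 59954 in ER, 63219 in SH and 60936 in EE (0.948, 0.938 to 0.959), and Gjb6, the gap junction protein connexin 30, had 661 in ER and 748 in SH (0.883, 0.794 to 0.983). Aqp4, a water channel of astrocyte endfeet, had a ratio of 0.991 (0.965 to 1.02) and Gfap, their intermediate filament, 0.974 (0.940 to 1.01). Slc1a2, the main glutamate uptake carrier, was the member whose interval lay above 1, with 3454 in ER and 3287 in SH (1.05).

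Postsynaptic scaffolds, which anchor receptors at excitatory synapses, had a ratio above 1 for 3 of 23 members. Counting intervals lay below 1 for 11 and above 1 for none, with a median log2 ratio of −0.05. Shank2 had 8666 scaled counts in ER, 9475 in SH and 8872 in EE (0.915, 0.888 to 0.942), and Camk2a, a kinase of synaptic plasticity, had 28582 in ER, 29420 in SH and 27862 in EE (0.972, 0.956 to 0.988). Among receptors, Grin1, the obligatory NMDA receptor subunit, had 16117 in ER and 17126 in SH (0.941, 0.921 to 0.962), whereas 5 of 7 NMDA subunits had a ratio above 1. Of 24 AMPA and kainate subunits and auxiliaries 10 did, with 1 interval above 1 and 7 below. The kainate subunit gene Grik1 was lowest, with 431 in ER, 532 in SH and 419.8 in EE (0.810, 0.711 to 0.922).

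On the presynaptic side the ratios spread in both directions. Of 43 genes of vesicle release, 27 had a ratio above 1, with 13 intervals above 1 and 6 below. Rims2, an active zone scaffold, had 5125 scaled counts in ER, 3873 in SH and 5472 in EE (1.32, 1.27 to 1.38). Unc13c, a vesicle priming factor, had 690.4 in ER, 518 in SH and 774 in EE (1.33, 1.19 to 1.498). Its paralogue Unc13a, the main priming factor of excitatory terminals, had 6778 in ER and 7302 in SH (0.928, 0.898 to 0.960), and the calcium sensor gene Syt7 had 3147 in ER and 3452 in SH (0.912, 0.868 to 0.957). The abundant Snap25, a membrane fusion protein, stood at 62229 in ER and 60729 in SH (1.02, 1.01 to 1.04).

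Interneuron genes lay on both sides of 1. Of 24, 11 had a ratio above 1, with 4 intervals above 1 and 4 below, and ratios ran between 0.610 (Dlx2, past the size rule) and 1.254 (Tac1, a tachykinin precursor). Tac1 is also among the markers of bordering striatum and central amygdala read below. The part of that tissue in the ratio of Tac1 was not tested. Gad2, a GABA-synthesising enzyme of terminals, had 8388 in ER, 7961 in SH and 9529 in EE (1.05, 1.02 to 1.09). The interneuron peptides and markers Sst (0.983), Pvalb (0.959), Vip (0.976) and Npy (0.960) all had intervals that included 1. Of 12 GABA-A subunits, 7 had a ratio above 1, and the 4 excluding intervals all lay above 1, the highest being Gabrb1 with 563 in ER, 471 in SH and 536 in EE (1.20, 1.06 to 1.35). Slc6a11, the GABA transporter GAT-3 of astrocytes, had 1384 in ER and 1561 in SH (0.886, 0.823 to 0.954).

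Projection neuron genes included Slc17a6, the second vesicular glutamate transporter, with 533 in ER, 442 in SH and 616 in EE (1.21, 1.06 to 1.37), and Tbr1, a transcription factor of glutamatergic neurons, with 1969 in ER and 2182 in SH (0.902, 0.848 to 0.960). Of 18 genes 6 had a ratio above 1, with 3 intervals above 1 and 5 below. Markers of bordering tissue were read for comparison. Of 21 genes of striatum and central amygdala, 13 had a ratio above 1 with 4 intervals above and 2 below, and their summed level was 18155 in ER and 18415 in SH. Of 11 genes of claustrum and endopiriform nucleus, 5 did, with 1 interval above and 5 below, and the sum was 57145 in ER and 59673 in SH. Of 11 genes of hypothalamus and medial amygdala, 7 did, with 1 interval above and 1 below, and the sum was 20687 in ER and 20317 in SH. The part of bordering tissue in the single ratios was not tested.

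Of 20 calcium channel subunits, 7 had a ratio above 1, with 2 intervals above 1 and 7 below. Cacna1h, a low-threshold calcium channel, had 3284 in ER, 3741 in SH and 3370 in EE (0.878, 0.837 to 0.920). Of 11 sodium channel subunits, 9 had a ratio above 1, with 2 intervals above 1 and none below. Oprm1, the mu opioid receptor, had 161 in ER, 118 in SH and 185 in EE (1.37, 1.07 to 1.76), Htr2c, a serotonin receptor, 1757 in ER and 1560 in SH (1.13, 1.05 to 1.21), and Chrna5, a nicotinic receptor subunit, 263 in ER and 200.2 in SH (1.31, 1.09 to 1.59). Of 11 acetylcholine receptor genes, 5 had a ratio above 1, with 3 intervals above 1 and 1 below, that of Chrm5. No interval excluded 1 among 9 endocannabinoid, 7 adrenergic and 2 dopamine receptor genes.

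Stress hormone genes lay on both sides of 1. The CRH receptor genes Crhr1 (0.893, 0.763 to 1.04) and Crhr2 (0.879, 0.703 to 1.098) and the binding protein gene Crhbp (0.953, 0.873 to 1.04) all had intervals that included 1. Among 21 corticosteroid-related genes, 15 had a ratio above 1, with 2 intervals above 1 and 1 below, and Plin4, a lipid droplet gene that glucocorticoids induce, was highest with 186 in ER, 135 in SH and 209.9 in EE (1.37, 1.09 to 1.73). Vgf, a neurotrophin-induced peptide precursor, had 5280 in ER, 5926 in SH and 6164 in EE (0.891, 0.858 to 0.925).

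Immediate early genes, which follow neuronal activity within minutes to hours, went both ways. Of 30, 12 had a ratio above 1, with 5 intervals above 1 and 8 below, and the median log2 ratio was −0.06. Fos had 128 scaled counts in ER, 177 in SH and 148 in EE (0.723, 0.571 to 0.914), and Egr2 had 105 in ER, 147 in SH and 130.3 in EE (0.710, 0.546 to 0.920). Both lay lower in ER than in either other library. In the other direction, Klf4 had 136 in ER, 99.6 in SH and 111 in EE (1.37, 1.05 to 1.79), and Arc, a regulator of synaptic receptors, had 1225 in ER, 1105 in SH and 1084 in EE (1.11, 1.02 to 1.20).

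**Figure D5:**
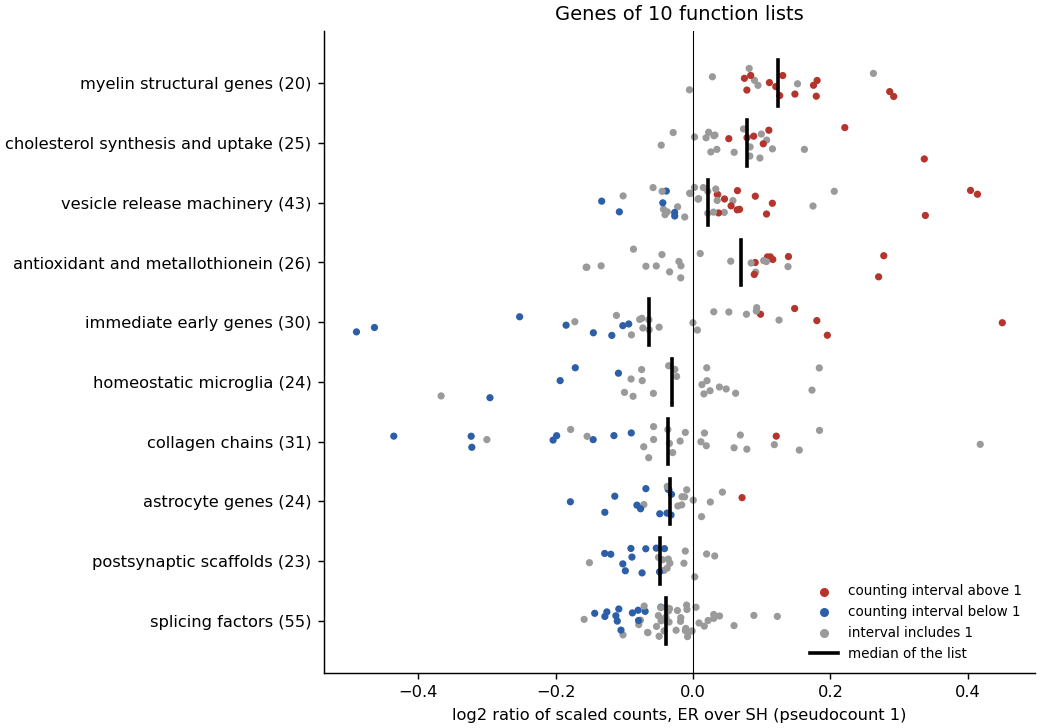
Log2 ratio, ER over SH (x axis, pseudocount of 1), of each gene of 10 function lists chosen after their values were seen, with the number of genes in brackets. Points are red where the counting interval lies above 1, blue where it lies below 1 and grey where it includes 1, and black bars are medians. Myelin and cholesterol genes lie mostly right of 0, postsynaptic scaffolds and splicing factors mostly left, and immediate early genes on both sides.

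Microglial genes were mostly near 1 or slightly below. Of 24, 10 had a ratio above 1, with 4 intervals below 1 and none above. Fcer1g, an adaptor of Fc receptors, had 371 in ER, 456 in SH and 396 in EE (0.814, 0.707 to 0.937), and C1qa, a chain of the complement protein C1q, had 1581 in ER, 1781 in SH and 1545 in EE (0.888, 0.829 to 0.951). The identity genes Cx3cr1 (0.961, 0.863 to 1.07), P2ry12 (0.949, 0.821 to 1.097), Tmem119 (0.950, 0.831 to 1.09) and Aif1 (1.01, 0.878 to 1.17) all had intervals that included 1. Summed over the 24 listed genes, scaled counts were 55658 in ER and 58723 in SH. The median level of a listed gene was 774, so this sum is weighted to the most abundant members and is no measure of microglia. Of 20 interferon-induced genes, 1 interval lay above 1 and 3 below. Mx2, an antiviral GTPase, was lower in ER, with 148 in ER, 224 in SH and 212 in EE (0.659, 0.531 to 0.816), while Isg15 was higher, with 63.6 in ER and 40.8 in SH.

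Among matrix genes, collagens were more often lower in ER. Of 31 collagen chains, 20 had a ratio below 1 and 11 had a ratio above 1, with 1 interval above 1 and 8 below. Col6a1, a chain of microfibrillar collagen, had 1111 in ER, 1390 in SH and 1168 in EE (0.799, 0.737 to 0.866), and Col8a1, a vessel-associated chain, had 119 in ER, 161 in SH and 227 in EE (0.738, 0.576 to 0.942). Perineuronal net genes, whose products coat parvalbumin interneurons, lay on both sides of 1. Of 17, 8 had a ratio above 1, the highest being 1.26, with a median log2 ratio of −0.0002. Counting intervals lay below 1 for 3 of them and above 1 for none. Hapln4, a link protein of the net, had 7165 in ER, 7836 in SH and 5950 in EE (0.914, 0.885 to 0.944), and the net proteoglycan gene Bcan had 8509 in ER, 9024 in SH and 8877 in EE (0.943, 0.915 to 0.972). Genes of pericytes and smooth muscle lay on both sides of 1. Of 17, 9 had a ratio above 1, the highest being 1.38, with a median log2 ratio of 0.003. Counting intervals lay above 1 for 2 of them and below 1 for 2. Those below were the vessel muscle genes Acta2 (0.773, 0.653 to 0.913) and Tagln (0.789, 0.676 to 0.922).

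Haemoglobin chains, the oxygen carriers of red cells, were higher in ER, but not the whole red cell list. Hbb had 898 scaled counts in ER, 607 in SH and 975 in EE (1.48, 1.33 to 1.64) and Hba-a1 had 1967 in ER, 1572 in SH and 2184 in EE (1.251, 1.17 to 1.34). Of 6 red cell genes at the level minimum, 4 had a ratio above 1 and 2 below, and the 3 intervals above 1 were those of Hbb, Hba-a1 and Hba-a2. Of 4 under the minimum, named after their values were seen, Ahsp, a haemoglobin chaperone, had 3.08 scaled counts in ER and 13.9 in SH (0.221, 0.0407 to 0.791), Epb42 had a ratio of 0.751 and Alas2 1.21, and Slc4a1 had 0 and 3 reads in ER and SH. With these 4 genes the median log2 ratio of the list was 0.01, against 0.15 without them. The part of blood in other ratios was not tested.

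Antioxidant, energy and chaperone genes lay on both sides of 1. Of 26 antioxidant genes, 15 had a ratio above 1, with 8 intervals above 1 and none below. Prdx3, a mitochondrial peroxidase, had 1757 in ER, 1457 in SH and 1638 in EE (1.21, 1.12 to 1.29), and Mt3, a brain metallothionein, had 4741 in ER and 4306 in SH (1.101, 1.06 to 1.15). Of 13 mitochondrially encoded genes, 10 had a ratio above 1, with 7 intervals above 1 and 3 below, and their sum was 1.05 times as high in ER. Mt-nd4, a subunit of respiratory complex I, had 221607 in ER and 194955 in SH (1.14, 1.13 to 1.14), and Mt-atp8, a subunit of ATP synthase, had 19334 in ER and 21117 in SH (0.916, 0.898 to 0.934). Nuclear genes of oxidative phosphorylation had a ratio above 1 for 48 of 79, glycolysis genes for 12 of 24 and mitochondrial ribosomal proteins for 33 of 75. Of 71 chaperone genes 36 did, with 12 intervals above 1 and 5 below, among them Hsp90aa1 with 53742 in ER, 49821 in SH and 53510 in EE (1.08, 1.07 to 1.09).

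Splicing factors lay below 1 for 45 of 55 members, with 12 intervals below 1 and none above and a median log2 ratio of −0.04. Celf5, a neuronal RNA-binding protein, had 16391 in ER, 17882 in SH and 16799 in EE (0.917, 0.897 to 0.936). Of 80 genes of cytosolic ribosomal proteins, 41 had a ratio above 1, with a median log2 ratio of 0.00.

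Genes known only by a clone or locus name held most of the extreme ratios, 17 of the 18 genes of at least 4-fold, and such names often mark copies that share reads with another gene. LOC100361457 had 24595 scaled counts in ER, 1234 in SH and 15729 in EE (19.9, 18.8 to 21.1). LOC100360413 had 18694 in ER, 1235 in SH and 4937 in EE (15.1, 14.3 to 16.05). AC120727.1 had 2 reads in SH against 370 scaled counts in ER, a ratio of 186 with a counting interval from 51.1 to 1541. AABR07055826.1 had no reads in ER against 61.7 scaled counts in SH, at least 20.1-fold lower with a floor of 3 reads.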

How the data were processed

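Polyadenylated RNA pooled from 10 rats per condition was sequenced with a strand-keeping kit. The authors aligned the reads with HISAT2 and normalised them with DESeq2. Their versions, the genome build and the strand setting of the counting were not given in the sources used here. Deposited values were a normalised signal, in which the size factor of a library divides the reads of every gene in it. Values were whole multiples of the value of 1 read in 100% of cases within 0.001 of a read, so reads were recovered. A count test could not be run because 1 library per condition leaves no residual degrees of freedom.

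Ratios printed as folds carry no pseudocount, and log2 ratios carry a pseudocount of 1. Exact 95% intervals came from recovered reads. The reads carry no molecular identifiers and are not independent molecules. Counting error alone is therefore covered by the intervals and by the floor of 3 reads. The compared genes and the 93 lists were chosen with earlier results of these data known. Named genes were the 15 highest and 15 lowest ratios with an ordinary symbol past the size rule, list members past it, the highest, the lowest and the 2 most abundant members of each list, cell type markers and up to 4 clone names. The following were named after their values were seen: Arc, Chst12, Clasp1, Col6a1, Drc1, Fos, Hapln4, Insig1, Lhx2, Lss, Mgst3, Msmo1, Pcdhb3, Prdx3, Rims2, Shank2, Unc13a, Vgf, Xylt1, AABR07055826.1 and the genes under the level minimum.

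The scripts were tested on simulated data. Alternatives were other scalings (library totals, edgeR TMM, upper quartile, median ratio of 1), pseudocounts, level minimums and fold rules. Some list members are not reported here by name. Promoter windows are RefSeq's for GRCr8, matched by symbol. Software was edgeR 4.0.16 in R 4.3.3 for TMM and upper-quartile factors, and Python 3.11.15 with scipy 1.17.1 for intervals, pandas 2.3.3 and numpy 2.4.6 for tables and matplotlib 3.10.9 for plots.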

Additional observations from a re-analysis of the deposited data

Results flagged for a closer look

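Outside the compared protein-coding genes, 598 listed pseudogenes, non-coding RNAs and other gene types reached the same mean of 50 scaled counts. Signal past the size rule appeared there for 16 that were higher in ER and 30 that were lower, values that no comparison above used. Of the 46, 13 were processed pseudogenes, 10 other pseudogenes, 9 long intergenic RNAs and 8 loci listed as microRNA genes. AABR07008505.1, listed as a microRNA gene, had no reads in ER or EE and 1400.2 scaled counts in SH. LOC688655, a pseudogene, had 19949 scaled counts in ER, 5304 in SH and 6380 in EE. RF00002, a ribosomal RNA, had 283 in ER, 590 in SH and 239 in EE.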

How the results depend on the processing

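The count of genes past the size rule depended on the level minimum and the rule, and not on scaling. It was 44 higher and 52 lower in ER as reported. With a level minimum of 20 it was 90 higher and 91 lower, with 200 it was 10 higher and 11 lower, and with no minimum beyond a mean above 1 it was 137 higher and 145 lower. A 2-fold rule left 13 higher and 20 lower, and ordinary symbols alone left 24 higher and 28 lower. Under the 4 scalings the count higher in ER was 42 to 45 and the count lower in ER was 52. The median log2 ratio over all genes moved by less than 0.01 under any scaling. The number of counting intervals that excluded 1 did change with scaling in some lists. Scaling by library totals took the intervals above 1 from 7 to 5 for cholesterol genes and from 1 to 0 for astrocyte genes. For solute carriers it took them from 26 to 20, and for myelin genes it left them at 13.

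Of the list medians recomputed under the alternatives, 929 moved by no more than the width to one side of the counting interval of the list's middle gene and 1 moved by more. That width can hold a change of sign, so these counts are no support for the medians. All 1182 recomputed log2 ratios of the ranked genes and list extremes stayed inside their counting intervals. A scaling shifts every gene alike by less than 0.01, so little else could have come out, and the ratios gain no support from it. The lists whose median lay on the other side of 0 under a scaling were 8, all within 0.01 of 0: perineuronal net genes, cytokine and chemokine receptors, pericyte and smooth muscle genes, tubulins, cytosolic ribosomal proteins, tRNA synthetases, glycolysis, and orphan and adhesion GPCRs. Over all alternatives, level minimums and pseudocounts included, the median of 24 lists, these 8 among them, lay on both sides of 0. The furthest on the other side were oxytocin, vasopressin and sex steroid receptors, with 0.11 as reported and −0.10 at the far end, and acetylcholine receptors, with −0.01 as reported and 0.04 at the far end. Mitotic genes had 0.10 as reported and −0.01 at the far end. With no level minimum the median of the red cell list was 0.01. No paired analysis was possible because each condition has 1 library, so leaving out a replicate was not possible either. Between-rat spread is not measured in these libraries.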

Other observations

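Among list members under the level minimum of 50, some ratios were large though they rested on few reads, and these genes were named after their values were seen. Dnmt3b, a de novo DNA methyltransferase, had 50.3 scaled counts in ER, 20.9 in SH and 45.5 in EE, a ratio of 2.40 (1.41 to 4.22). Mcm5, a subunit of the replicative helicase, had 35.9 in ER, 12.9 in SH and 25.8 in EE (2.77, 1.43 to 5.71). P2ry1, a purine receptor, had 54.4 in ER, 28.9 in SH and 63.1 in EE (1.88, 1.18 to 3.07). Fgf2, a growth factor of astrocytes, had 31.8 in ER, 53.8 in SH and 44.5 in EE (0.591, 0.367 to 0.936). In each of these genes fewer than 100 reads a library stand behind the value.

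Single genes at the extremes of lists not described above had the following values. Epha8, a receptor for ephrins, had 328 in ER, 472 in SH and 280.2 in EE (0.695, 0.602 to 0.803). Wnt16 had 83.1 in ER, 56.8 in SH and 99.3 in EE (1.46, 1.03 to 2.09), and Pcdhb3, a clustered protocadherin, had 151 in ER, 105 in SH and 131 in EE (1.44, 1.12 to 1.87). Their lists lay on both sides of 1, with 3 intervals above 1 and 5 below among 31 axon guidance receptors, 2 above and 1 below among 8 Wnt ligands, and 6 above and 4 below among 68 cadherins and protocadherins. Cd55, which protects cells from complement, had 238 in ER, 178 in SH and 174 in EE (1.34, 1.09 to 1.63). Its list leaned the other way. Of 20 complement genes, 7 had a ratio above 1, with 1 interval above 1 and 3 below and a median log2 ratio of −0.07. Pde5a, which breaks down cyclic GMP, had 106 in ER, 151 in SH and 139 in EE (0.698, 0.538 to 0.902). Of 39 cyclic nucleotide enzymes, 24 had a ratio above 1, with 3 intervals above 1 and 3 below.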
